A study of Drosophila melanogaster with 14 samples.

Results

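The peak lists of Su(Hw) and dCTCF, 2 DNA-binding insulator proteins, were set against each other at each of 3 times in Kc167, a cell line derived from Drosophila melanogaster embryos. The groups were cells given 20-hydroxyecdysone, the moulting hormone of insects, for 3 or 48 h, and untreated cells (0 h). The dose was 5e-07 M, although the label of the 48 h samples gives that number without a unit. Each protein was mapped by chromatin immunoprecipitation and sequencing (ChIP-seq) with an antibody raised in the submitters' laboratory, in 1 library per protein and time. With 1 library per group, no difference between groups has a replicate check and no p-value is given. The 6 lists held 36193 peaks on the main chromosome arms (X, 2L, 2R, 3L, 3R and 4), of 81028 peaks on all sequences in the 12 lists of the series. CP190 and BEAF-32, the other two proteins of the series, were used to describe the sites. Peaks on U, Uextra, pieces whose names end in Het and the mitochondrion were left out, which removed 21 to 23 Su(Hw) peaks and 1267 to 1704 dCTCF peaks per list.

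Insulator proteins bind DNA elements that can limit contact between an enhancer and a promoter or mark the border of a chromatin domain. Su(Hw) is a multi-zinc-finger protein known for the insulator of the gypsy retrotransposon, where CP190 is part of its complex. dCTCF is the fly counterpart of vertebrate CTCF, is known for boundaries of the bithorax complex, and also works with CP190. BEAF-32, a boundary element factor, often lies near the starts of active genes. The question here was how often Su(Hw) and dCTCF were mapped to the same place, what such places looked like, and how the shared set differed between times.

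Su(Hw) peaks lay on dCTCF peaks far more often than their number and width alone would give. A peak was called shared when it overlapped a peak of the other protein at the same time by 1 bp or more. Of the Su(Hw) peaks, 2331 of 7951 (29.3%, 95% Wilson interval 28.3 to 30.3) were shared at 0 h, 2487 of 8492 (29.3%, 28.3 to 30.3) at 3 h and 2077 of 8329 (24.9%, 24.0 to 25.9) at 48 h. Of the dCTCF peaks, 2339 of 4003 (58.4%, 56.9 to 59.9) were shared at 0 h, 2479 of 4085 (60.7%, 59.2 to 62.2) at 3 h and 2031 of 3333 (60.9%, 59.3 to 62.6) at 48 h. If each peak could lie anywhere on its own arm with equal chance, 4.46%, 4.56% and 4.29% of the Su(Hw) peaks and 8.85%, 9.39% and 10.5% of the dCTCF peaks would overlap the other protein at 0, 3 and 48 h. The observed shares were 5.82 to 6.58 times these values for Su(Hw) and 5.83 to 6.60 times for dCTCF. Uniform placement is a description of list size and width, since open and repeated sequence also limit where peaks of any protein can be found. The intervals cover counting error only, and the read depth behind each list is unknown because the lists hold no counts.

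**Figure D1:**
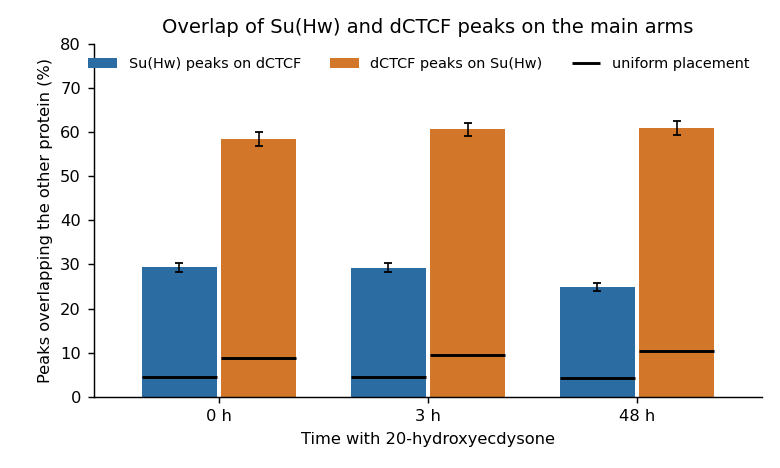
Share of Su(Hw) peaks that overlapped a dCTCF peak, and of dCTCF peaks that overlapped a Su(Hw) peak, in percent, at each time. Error bars are 95% Wilson intervals over peaks of 1 library, and black lines give the share under uniform placement on the same arm. All 6 bars stand above their lines, and the Su(Hw) bar at 48 h (24.9%) lies below those at 0 and 3 h (29.3% each).

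The 2 proteins were centred on nearly the same position where they met. The shared peaks formed 2370 overlapping pairs at 0 h, 2523 at 3 h and 2095 at 48 h. The distance between the centres of a pair had a median of 41.5 bp at 0 h, 49.0 bp at 3 h and 45.0 bp at 48 h, and 69.0% to 73.7% of the pairs had centres within 100 bp. An even spread of the centres over every offset that still gives an overlap sets an expected median distance for each pair. The median of these expected values over the pairs was 313.5, 313.0 and 361.0 bp. Pairs with centres over 500 bp apart made up 2.95%, 3.25% and 4.82%. The shorter peak lay wholly within the longer one in 69.3%, 64.4% and 66.0% of the pairs, and fewer than 50% of its bases were covered in 36, 39 and 42 pairs. Merged into sites, the pairs gave 2300 shared sites at 0 h, 2443 at 3 h and 2013 at 48 h, of which 2242, 2369 and 1938 held exactly 1 peak of each protein.

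**Figure D2:**
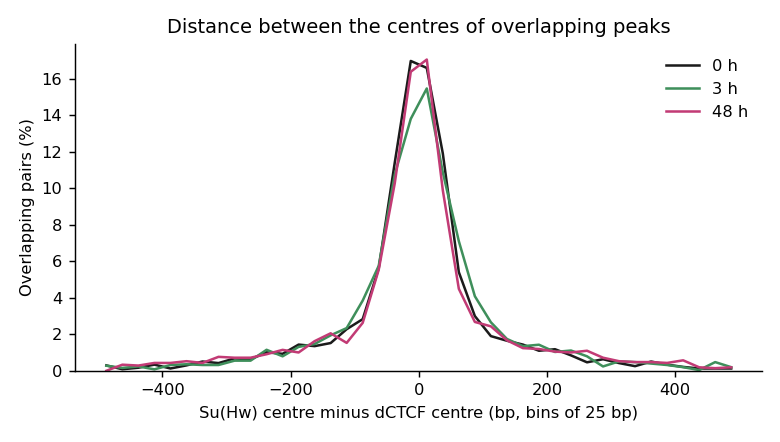
Distance from the dCTCF centre to the Su(Hw) centre in bp (horizontal axis, bins of 25 bp) against the share of overlapping pairs in percent, for the 3 times. The curves peak around 0 bp on both sides alike, and 51.2% to 56.9% of the pairs had centres within 50 bp.

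Pairs in which both peaks were weak were the most tightly centred. At 0 h, 629 of the 882 pairs with both peaks in the lower 50% of their lists by score had centres within 50 bp (71.3%, 68.2 to 74.2). For pairs with both peaks in the upper 50% the share was 170 of 414 (41.1%, 36.4 to 45.9). The shares were 63.2% and 37.2% at 3 h, and 67.9% and 39.9% at 48 h. Weak peaks were also narrower. The median over pairs of the distance expected from evenly spread centres was 251.6 bp for the pairs of weak peaks at 0 h. For the pairs of strong ones it was 404.75 bp. Pairs with CP190 on the Su(Hw) peak had median centre distances of 41.25, 49.5 and 43.5 bp at 0, 3 and 48 h, against 43.0, 46.0 and 51.75 bp for pairs without it, so neither kind was closer at all times.

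Separate peaks lay near the other protein about as often as uniform placement gives. Of the Su(Hw) peaks without an overlapping dCTCF peak, 6.35% had one within 1 kb at 0 h, 7.39% at 3 h and 5.98% at 48 h. For dCTCF peaks without Su(Hw) the shares with a Su(Hw) peak within 1 kb were 12.3%, 13.9% and 12.2%. Placed uniformly where they overlap no peak of the other protein, 6.21%, 6.35% and 5.28% of these Su(Hw) peaks and 12.04%, 12.5% and 12.3% of these dCTCF peaks would lie that near. The uniform values fell within the 95% intervals of the observed shares for dCTCF at each time and for Su(Hw) at 0 h, and just below them for Su(Hw) at 3 h (6.76 to 8.08) and 48 h (5.42 to 6.60).

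Shared Su(Hw) peaks were narrower than separate ones, while shared and separate dCTCF peaks had like median widths but differed among wide peaks. Shared Su(Hw) peaks had median widths of 605, 590 and 622 bp at 0, 3 and 48 h, against 683.5, 656 and 677 bp for separate ones. Shared dCTCF peaks had median widths of 540, 548 and 710 bp, against 527.5, 557 and 695 bp. Their upper quartiles were 748.5, 762 and 942.5 bp, against 680.5, 693.5 and 831.75 bp for separate ones. Of the dCTCF peaks of 1000 bp or more, 71.1%, 68.1% and 71.5% were shared at 0, 3 and 48 h. Of those under 500 bp, 56.1%, 60.9% and 58.0% were. The dCTCF list at 48 h stood apart in its widths, with a median of 703 bp beside 536 bp at 0 h and 551 bp at 3 h, and it was the shortest on the arms. The wider peak of a pair was Su(Hw) in 65.9% of the pairs at 0 h and 60.2% at 3 h, but in 31.9% at 48 h. With every peak set to 400 bp around its centre, 28.3%, 28.1% and 23.4% of the Su(Hw) peaks were shared at 0, 3 and 48 h. The share at 48 h was thus also the lowest at equal widths. Uniform placement of these 400 bp peaks gave 2.66%, 2.73% and 2.23%, which was likewise lowest at 48 h, where the dCTCF list was shortest. The part of list length in this difference was not tested.

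Each peak carries a score given by the authors, whose scale the lists do not define. Values of 3100 or more were taken as a ceiling, and the score is used here only to rank or class peaks within a list. High-scoring Su(Hw) peaks were the least often shared. At 0 h, dCTCF lay on 450 of 2748 Su(Hw) peaks at the ceiling (16.4%) and on 163 of 1057 peaks between 1000 and 3100 (15.4%). It lay on 335 of 773 Su(Hw) peaks between 500 and 1000 (43.3%), on 787 of 1721 between 200 and 500 (45.7%, 43.4 to 48.1) and on 596 of 1652 under 200 (36.1%). The same shape held at 3 h, with 15.8% at the ceiling and 49.0% between 500 and 1000, and at 48 h, with 12.8% and 42.2%. The median shared Su(Hw) peak stood at the 36.3rd score percentile of its list at 0 h, and the median separate one at the 58.4th.

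For dCTCF peaks the fall at high scores was smaller. At 0 h, Su(Hw) lay on 668 of 1217 dCTCF peaks at the ceiling (54.9%, 52.1 to 57.7), on 282 of 407 between 500 and 1000 (69.3%) and on 548 of 1063 under 200 (51.6%). At 3 h the shares of the same classes were 59.1%, 69.2% and 56.3%, and at 48 h 58.7%, 71.6% and 57.6%. Between 1000 and 3100 the dCTCF shares were 61.2%, 49.1% and 58.6% at 0, 3 and 48 h. Sharing was lower when both lists were limited to their strongest peaks. Limited to the upper 50% of each list by score, 10.4%, 11.6% and 9.58% of Su(Hw) peaks and 20.4%, 24.0% and 23.8% of dCTCF peaks were shared at 0, 3 and 48 h. Uniform placement of those peaks gave 2.73%, 2.81% and 2.54% for Su(Hw) and 5.44%, 5.82% and 6.29% for dCTCF. With the 3333 highest-scoring peaks of every list, the shares were 13.1%, 12.7% and 12.2% for Su(Hw) and 13.4%, 13.0% and 12.5% for dCTCF. Uniform placement then gave 4.33%, 4.43% and 4.82% for Su(Hw) and 4.41%, 4.50% and 4.86% for dCTCF. The 48 h dCTCF list has 3333 peaks in all, so it kept its weak peaks here while the other lists were cut. The median shared dCTCF peak stood at the 50.5th percentile at 0 h, and the median separate one at the 49.6th.

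**Figure D3:**
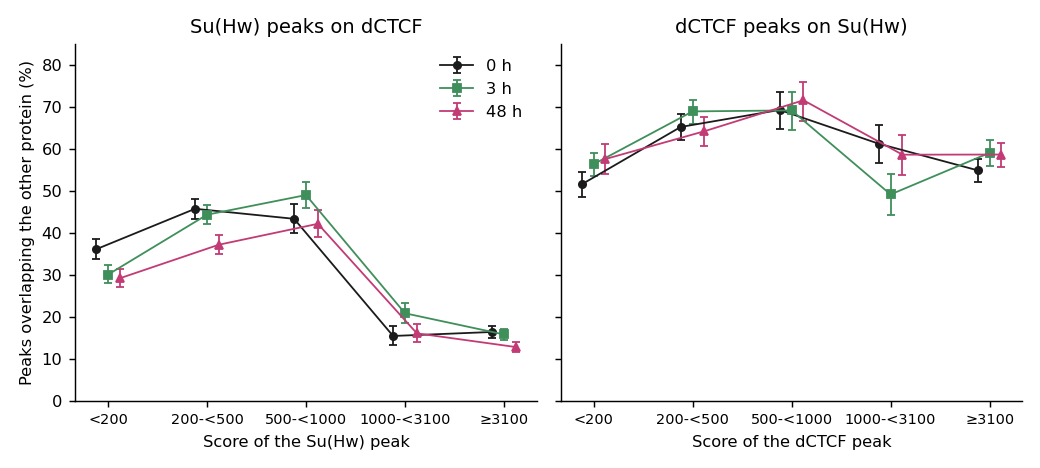
Share of peaks overlapping the other protein, in percent, by the score class of the peak itself, for Su(Hw) peaks (left) and dCTCF peaks (right). Points are 1 library each with 95% Wilson intervals. Su(Hw) shares fall below 21% from a score of 1000 upward at all 3 times, while dCTCF shares stay between 49.1% and 71.6%.

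Within a pair the scores of the 2 proteins were only loosely related. Spearman's rho over pairs was 0.23 at 0 h (2370 pairs), 0.17 at 3 h (2523 pairs) and 0.21 at 48 h (2095 pairs). The pairs of a time share their 2 libraries, and peak widths of a pair had rho values of 0.25, 0.22 and 0.27. A dCTCF peak in the upper 50% of its list paired with a Su(Hw) peak in the lower 50% of its own in 790 pairs at 0 h (33.3%), and the opposite combination occurred in 284 pairs. Both peaks were in the lower 50% in 882 pairs (37.2%) and in the upper 50% in 414 (17.5%). At the ceiling, 153 pairs had both peaks there at 0 h, 137 at 3 h and 155 at 48 h.

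The most uneven pairs at 0 h show both extremes. At 3R:16111995-16113369, 2L:6366625-6368129 and 3L:15508954-15510314, Su(Hw) was at the ceiling at all times. The dCTCF peaks of these pairs scored 100.94, 101.1 and 101.81 at 0 h, and dCTCF was absent from all 3 at 48 h. The region on 2L held a further dCTCF peak at 0 h, with a score of 482.91. CP190 was present at these 3 sites at every time. In the opposite direction, dCTCF was at the ceiling at all times at 2R:7018801-7019483, 2L:11940182-11941391 and 2R:17199610-17201375. The Su(Hw) peaks of these pairs scored 100.56, 101.32 and 101.55 at 0 h. At the first 2 of these Su(Hw) had no peak at 48 h, and neither CP190 nor BEAF-32 had a peak at any time. All 4 proteins were present throughout at 2R:17199610-17201375. The lowest scores of the 0 h lists were 100.03 for Su(Hw) and 100.02 for dCTCF. The weak peaks of these uneven pairs thus lay at the bottom of their lists, where a missing peak need not mean lost binding.

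Sharing was spread over the large arms. At 0 h the share of Su(Hw) peaks on dCTCF was 29.6% on X, 27.4% on 2L, 30.2% on 2R, 31.0% on 3L and 27.8% on 3R. The share of dCTCF peaks on Su(Hw) was 57.2%, 54.8%, 57.7%, 60.9% and 61.0% in the same order. On 2L it was also the lowest of these arms at 3 h (57.0%) and 48 h (55.0%), although its interval overlapped that of X at each time. At 48 h the 2L interval (50.9 to 59.1) lay below those of 2R (from 59.3) and 3R (from 59.9). Uniform placement of dCTCF peaks was likewise lowest on 2L among these arms, at 7.704%, 8.079% and 9.161% at 0, 3 and 48 h. The part of this background in the lower share on 2L was not tested. The small chromosome 4, which is largely heterochromatic, held 22 Su(Hw) peaks at 0 h, of which 16 were shared (72.7%, 51.8 to 86.8). At 3 h 12 of 21 were shared there and at 48 h 14 of 23, with 3.09%, 2.49% and 3.13% under uniform placement at 0, 3 and 48 h. Of its dCTCF peaks, 16 of 34, 13 of 26 and 14 of 30 were shared at 0, 3 and 48 h. Chromosome 4 was the only arm where Su(Hw) peaks (16.3 per Mb at 0 h) were sparser than dCTCF peaks (25.2 per Mb).

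CP190 was at most shared sites and at a minority of separate ones. Over all Su(Hw) and dCTCF sites together, 47.8% overlapped a CP190 peak of the same time at 0 h, 50.1% at 3 h and 45.4% at 48 h. At 0 h CP190 was at 2040 of 2300 shared sites (88.7%, 87.3 to 89.9), at 1765 of 5620 Su(Hw)-only sites (31.4%, 30.2 to 32.6) and at 779 of 1664 dCTCF-only sites (46.8%, 44.4 to 49.2). At 3 h the shares were 82.5% (81.0 to 84.0), 37.0% and 49.8%, and at 48 h they were 85.9% (84.3 to 87.3), 33.3% and 41.2%. Uniform placement gave 7.68% to 10.3%. The CP190 peaks at shared sites were also the higher-ranked ones. Their median score percentile in the CP190 list was 77.9 at 0 h, 88.4 at 3 h and 89.6 at 48 h, against 43.2, 44.9 and 47.2 at Su(Hw)-only sites and 54.4, 57.9 and 54.5 at dCTCF-only sites.

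BEAF-32 followed the same order of classes, starting lower. Over all sites, 25.6% overlapped BEAF-32 at 0 h, 32.1% at 3 h and 30.1% at 48 h. The share at shared sites was 62.7% (60.7 to 64.6) at 0 h, 68.2% at 3 h and 69.9% at 48 h. At Su(Hw)-only sites it was 7.22% (6.58 to 7.93) at 0 h, with the 5.87% of uniform placement just below that interval. It was then 14.8% at 3 h and 15.7% at 48 h, and at dCTCF-only sites it was 36.5%, 41.9% and 37.6%. The BEAF-32 list on the arms held 4187, 5882 and 5896 peaks, and its part in these increases was not tested. All 4 proteins met at 1376 of 2300 shared sites at 0 h (59.8%), 1464 of 2443 at 3 h (59.9%) and 1251 of 2013 at 48 h (62.1%). Shared sites with neither CP190 nor BEAF-32 numbered 195 (8.48%), 225 (9.21%) and 127 (6.31%).

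**Figure D4:**
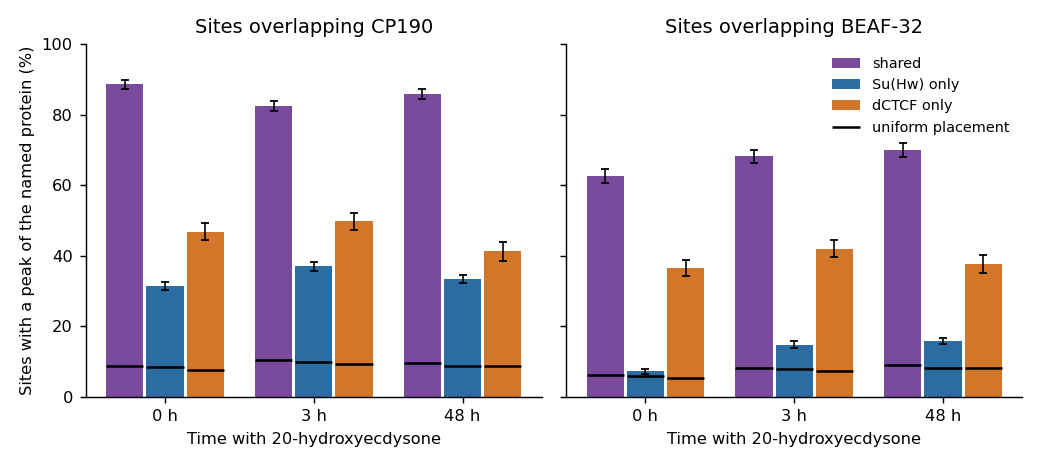
Share of sites with a CP190 peak (left) or a BEAF-32 peak (right) of the same time, in percent, at sites shared by Su(Hw) and dCTCF, Su(Hw)-only sites and dCTCF-only sites. Error bars are 95% Wilson intervals over sites of 1 library, and black lines give uniform placement. CP190 was at 82.5% to 88.7% of shared sites and BEAF-32 at 62.7% to 69.9%.

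For Su(Hw) peaks the difference in CP190 was present in every score class and width class at the 3 times, while for dCTCF peaks it was absent in the weakest score class at 3 h. Among 0 h Su(Hw) peaks, CP190 was at 85.1% of shared and 19.4% of separate peaks with scores under 200, at 88.3% and 11.1% between 200 and 500, and at 86.6% and 6.39% between 500 and 1000. It was at 83.4% and 14.0% between 1000 and 3100, and at 96.4% and 56.7% at the ceiling. Among separate Su(Hw) peaks CP190 was thus most frequent at the ceiling, while among shared ones it was frequent in every class. In the 4 width classes of 0 h Su(Hw) peaks (under 500, 500 to 700, 700 to 1000, and 1000 bp or more), CP190 was at 86.6% to 91.0% of shared peaks and 16.4% to 54.8% of separate ones.

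Separate dCTCF peaks went the other way at high scores, with CP190 least frequent from 1000 upward. At 0 h CP190 lay on 66.2% of separate dCTCF peaks with scores under 200, on 60.5% between 200 and 500, on 47.2% between 500 and 1000, on 31.4% between 1000 and 3100 and on 25.7% (22.2 to 29.5) at the ceiling. Shared dCTCF peaks had CP190 at 78.3%, 90.6%, 94.0%, 92.9% and 91.5% in the same classes. The weakest class differed least. At 3 h, dCTCF peaks under 200 had CP190 at 65.0% (61.4 to 68.4) when shared and 66.5% (62.4 to 70.3) when separate, and these intervals overlapped. At 48 h the separate peaks had CP190 at 56.9%, 53.6%, 61.0%, 24.4% and 26.2% in the same classes, so the low share above 1000 recurred but the steady fall did not.

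Read from the other side, a Su(Hw) peak with CP190 was shared with dCTCF far more often than one without. At 0 h, 2062 of 3827 Su(Hw) peaks with CP190 lay on dCTCF (53.9%, 52.3 to 55.5), against 269 of 4124 without CP190 (6.52%, 5.81 to 7.32). The shares were 48.0% and 10.3% at 3 h, and 46.1% and 6.69% at 48 h. Su(Hw) peaks with neither CP190 nor BEAF-32 lay on dCTCF in 5.12% of cases at 0 h (4.47 to 5.86), 6.39% at 3 h (5.64 to 7.23) and 3.63% at 48 h (3.08 to 4.28). Uniform placement gave 4.32%, 4.38% and 4.10% for these peaks, which is below the interval at 0 and 3 h and within it at 48 h. The dCTCF peaks were read in the same way. With CP190, 72.7%, 71.8% and 76.4% lay on Su(Hw) at 0, 3 and 48 h, and without it 23.1%, 35.3% and 27.4% did. Without CP190 and BEAF-32 the shares were 20.3%, 24.9% and 15.9%, above the 8.79%, 9.42% and 10.3% of uniform placement. The CP190 list bears the same pattern: 35.0% of its 0 h peaks on the arms overlapped both proteins, and 44.9% of those were at the score ceiling, against 5.47% of CP190 peaks with Su(Hw) only, 10.6% with dCTCF only and 1.12% with neither.

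The 3 Su(Hw)-only sites named here were taken by width from the many tied at the score ceiling. CP190 was present at each of them at 0 and 3 h. Among all separate Su(Hw) peaks at the ceiling at 0 h, it lay on 1303 of 2298 (56.7%). At 2L:489535-493482, 3R:22781179-22784377 and X:12433129-12435953, Su(Hw) and dCTCF both reached the ceiling at all times. CP190 was at the ceiling at every time at the first 2 sites, and scored 978.87, 2004.12 and 1107.58 at the site on X. BEAF-32 scored 2682.45 at 0 h and reached the ceiling at 3 and 48 h at the site on 2L, but at the site on X it was present only at 0 h (score 156.1). The Su(Hw) site at 2L:476556-480631, at the ceiling throughout and without dCTCF at any time, lies on the same arm as the shared site at 2L:489535-493482 and close to it. CP190 was present there at all times (1153.09, 1152.73 and 458.77), and BEAF-32 at 3 and 48 h only. At the Su(Hw) site 2L:469137-472449, also without dCTCF at any time, CP190 was present at 0 h (441.37) and 3 h (792.75). At 2R:20186357-20190410, of the same kind, it scored 1945.36, 3004.0 and 2742.25, above its scores at the shared site on X at every time. At the dCTCF-only sites X:6170486-6172815 and 2R:13578662-13580643, dCTCF was at the ceiling at all times. CP190 scored 105.24 at 3 h alone at the site on X and had no peak at the site on 2R, and at the dCTCF-only site 2R:8983491-8985394 it scored 183.7, 268.27 and 264.53.

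Over the 3 times, about as many ever-shared regions were shared throughout as were not. Peaks of both proteins at all times merged into 11244 regions, of which 3004 were shared at 1 time or more. Of these, 1552 (51.7%, 49.9 to 53.4) were shared at 0, 3 and 48 h. A further 311 were shared at 0 and 3 h, 120 at 0 and 48 h and 145 at 3 and 48 h. There were 294 regions shared at 0 h only, 395 at 3 h only and 187 at 48 h only. Another 6509 regions held Su(Hw) and never dCTCF, 1594 held dCTCF and never Su(Hw), and 137 held both without an overlap at any 1 time. The 3 and 48 h lists are each compared with the same 0 h list here.

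**Figure D5:**
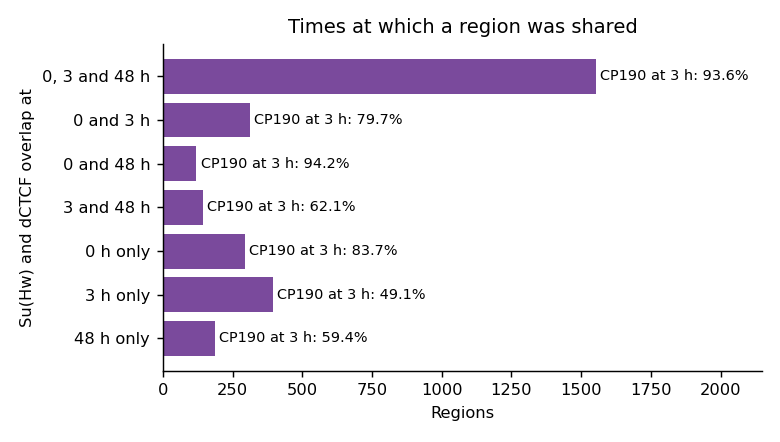
Number of regions (horizontal axis) by the times at which Su(Hw) and dCTCF peaks overlapped in them, with the share of those regions that had a CP190 peak at 3 h beside each bar. The 1552 regions shared at all times had CP190 at 93.6%, and the 395 regions shared at 3 h only had it at 49.1%.

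Regions shared at all times held the stronger peaks. Over the times at which they were shared, their median scores were 517.52 for Su(Hw) and 1026.7 for dCTCF, while regions shared at 0 h only had 175.67 and 152.53, and regions shared at 48 h only 189.99 and 210.63. Regions shared at 3 h only had a median Su(Hw) score of 312.41 and a median dCTCF score of 152.83. Of these 395 regions, 237 held Su(Hw) at all times, against 48 that held dCTCF at all times. CP190 was less frequent in them than in regions shared at 0 h only, which had CP190 at 82.0% at 0 h, 83.7% at 3 h and 79.9% at 48 h. The corresponding shares in the regions shared at 3 h only were 43.3%, 49.1% and 42.0%.

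Where sharing stopped, the dCTCF peak was more often the one missing, and dCTCF peaks were also found again less often over the whole lists. Of all 0 h peaks, 84.7% for dCTCF and 92.5% for Su(Hw) overlapped a 3 h peak of the same protein. At 48 h these shares were 77.6% and 88.6%. From 0 to 3 h, 414 of 2277 shared regions (18.2%) stopped being shared: dCTCF alone was missing at 3 h in 216, Su(Hw) alone in 151, both in 41, and in 6 both were present but no longer overlapped. From 3 to 48 h, 706 of 2403 (29.4%) stopped, with dCTCF alone missing in 459 (65.0%, 61.4 to 68.4), Su(Hw) alone in 152 and both in 94. The dCTCF list on the arms held 3333 peaks at 48 h, against 4085 at 3 h, and the part of list length in this count was not tested. The missing peak had been a weak one: in the 459 regions the median dCTCF score at 3 h was 157.39 and the median Su(Hw) score 570.0. In the 152 regions the medians were 394.71 for dCTCF and 154.42 for Su(Hw).

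Where sharing began, the new peak was likewise weak. From 0 to 3 h, 540 regions became shared, 318 of them by a new dCTCF peak on a Su(Hw) site (median dCTCF score 144.77, median Su(Hw) score 534.74). A new Su(Hw) peak on a dCTCF site accounted for 160 (median Su(Hw) score 148.81), and in 53 both were new. CP190 was present in 40.3% of the 318 regions at 3 h and in 37.1% at 0 h. In the 160 regions it was present in 78.75% at 3 h and 74.4% at 0 h. From 3 to 48 h, 307 regions became shared, 134 by a new dCTCF peak and 138 by a new Su(Hw) peak. In the 459 regions that lacked only dCTCF at 48 h, CP190 was present in 49.7% at 48 h and 55.1% at 3 h.

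Peaks of 0 h that were shared were found again as often as, or more often than, separate peaks of the same score class. Over the whole lists, 92.5% of 0 h Su(Hw) peaks overlapped a 3 h Su(Hw) peak and 88.6% a 48 h one, and for dCTCF the shares were 84.7% and 77.6%. Shared dCTCF peaks were found again at 3 h in 88.4% of cases (87.0 to 89.6) and separate ones in 79.4% (77.4 to 81.3), and at 48 h in 82.1% and 71.3%. Within the score class under 200, 60.8% of shared and 46.2% of separate dCTCF peaks were found at 3 h, and 42.9% and 27.6% at 48 h. For Su(Hw) the totals ran the other way, at 91.3% for shared and 93.0% for separate peaks at 3 h and 87.0% and 89.3% at 48 h. A larger share of the shared Su(Hw) peaks had low scores, as given above. Within the class under 200, 72.7% of shared and 68.0% of separate Su(Hw) peaks were found at 3 h, and between 200 and 500, 90.1% and 84.0% at 48 h. Every 0 h peak at the ceiling, shared or separate, was found at both later times for Su(Hw) and for dCTCF.

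Single regions, those with the highest scores of their groups, show how sharing ended. The peaks lost at them scored above the medians given above for missing peaks, so they are not typical. At 3R:19364486-19365697 Su(Hw) stayed at the ceiling, and dCTCF scored 2746.51 at 0 h and 712.71 at 3 h and was absent at 48 h. CP190 was present there at all times, at 740.43, 1265.75 and 1676.24. At 3R:19154895-19159382 dCTCF scored 2230.85 and 1920.92 before it was absent at 48 h, and Su(Hw) scored 908.8, 1619.06 and 828.33. The reverse happened at 3L:17571802-17573230, where dCTCF stayed at the ceiling and Su(Hw) scored 616.7 at 0 h and 1335.15 at 3 h and was absent at 48 h. Of the regions shared at 0 h only, X:9716381-9717217 and 2R:3614442-3615752 kept Su(Hw) at the ceiling throughout and had dCTCF at 401.38 and 396.13 at 0 h alone. CP190 had no peak at the first at any time and was near or at the ceiling at the second. At X:13829798-13831628 both proteins were present at all times but their peaks overlapped at 0 h alone.

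Other regions, chosen by score in the same way, became shared. At 2R:1564176-1565071, where dCTCF was at the ceiling at 0 and 48 h and scored 1017.15 at 3 h, and CP190 was at the ceiling throughout, Su(Hw) appeared at 48 h with a score of 2229.01. At 3R:793753-794696 it appeared at 48 h with 812.37, on dCTCF peaks scoring 1027.63, 224.82 and 1155.57. At X:16861219-16862160 Su(Hw) was absent at 0 h and scored 348.24 at 3 h and 633.89 at 48 h, while dCTCF was at the ceiling at all times and CP190 and BEAF-32 were present throughout. At 2R:11620374-11621343 Su(Hw) was absent at 0 h and scored 148.81 and 889.38, with dCTCF at 810.47, 263.76 and 1235.81 and no CP190 or BEAF-32 at any time. In 2 regions near the top of these groups, 3L:22889838-22891737 and 3L:15486797-15488367, both proteins were present at every time. Such cases were rare: 9 of the 540 regions that became shared from 0 to 3 h had held both peaks apart. From 3 to 48 h it was 8 of 307. At 3L:22889838-22891737 Su(Hw) scored 1021.57 at 48 h and 146.33 at 0 h, and its peaks overlapped dCTCF at 3 and 48 h. At 3L:15486797-15488367 Su(Hw) was at the ceiling at 48 h and scored 442.42 at 0 h, and the peaks overlapped at 48 h alone. Among the regions shared at 3 h only, X:8699624-8700323 held Su(Hw) at all times (949.61, 2049.65 and 1109.45) and dCTCF at 3 h alone (473.34), without CP190. At 2R:2122815-2123966 dCTCF was present at all times and Su(Hw) at 3 h alone (438.26). At X:15249346-15251286 both were present throughout, and their peaks overlapped at 3 h alone.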

How the data were processed

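ChIP-seq peak lists of 12 libraries (Su(Hw), dCTCF, CP190 and BEAF-32 at 0, 3 and 48 h) were used. The 2 input libraries were not analysed here. The deposited lists give a sequence name, start, end, peak name and score; the peak names begin with MACS. The submitters' processing notes name Bowtie 0.12.5. Caller settings, control library and genome build were not given in the sources used, and sequence names are in the style of Release 5. The score is the authors' deposited value per peak, and values from 3100 upward were ranked equal. Starts were read as counted from 0, as in BED files, and are printed counted from 1. No genome or annotation of this build was used, so no sequences or gene names are given.

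Sites were merged runs of overlapping Su(Hw) and dCTCF peaks of 1 time. Shares carry 95% Wilson intervals. Uniform placement was calculated exactly from the gaps between peaks, with each arm ending at the last peak of any list. Regions were named by a fixed rule, 3 per class: the highest scores among regions shared at all times, those shared at 3 and 48 h, at 3 h, at 48 h, at 0 h or at 0 and 3 h only, the most uneven 0 h pairs, and the strongest sites of either protein without the other. Ties went to the higher other score, then to the wider region. The members, classes and this rule were chosen with earlier results of these data known. Overlap counting was checked on simulated peaks with known answers. Alternatives are given in the closing section. Python 3.11.15, numpy 2.4.6, pandas 2.3.3, scipy 1.17.1 and matplotlib 3.10.9 were used.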

Additional observations from a re-analysis of the deposited data

Results flagged for a closer look

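Su(Hw) and dCTCF moved in opposite directions between 48 and 0 h, which was not tested with 1 library each. The number of arm peaks changed by 378 for Su(Hw) and by -670 for dCTCF. The share of peaks on the other protein changed by -4.38 percentage points for Su(Hw) and by 2.505 points for dCTCF. With all lists at 3333 peaks both shares were lower at 48 h, at 12.2% and 12.5%, than at 0 h, at 13.1% and 13.4%, and the intervals of the 2 times overlapped for each protein. The 48 h dCTCF list was whole in this comparison, weak peaks included.

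On the sequences left out, 15 of 21 Su(Hw) peaks overlapped dCTCF at 0 h, 10 of 22 at 3 h and 9 of 23 at 48 h, although the main comparison does not use them. From the other side, 15 of 1597, 10 of 1267 and 9 of 1704 dCTCF peaks there overlapped Su(Hw). Uniform placement was not calculated for these sequences alone, so these shares have no background to be read against.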

How the results depend on the processing

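Under 7 alternatives, 1 of them (400 bp peaks) chosen after seeing the data, 13 values were recomputed. Of the 91 values, 53 lay within the 95% interval of the reported value, among them all with an overlap of 50% of the shorter peak and all with peaks under 200 bp apart merged. Under the 50% overlap and 250 bp centre rules, sites whose peaks touched but failed the rule were left out of every class. The CP190 shares of the separate classes therefore stayed as reported, and agreement of the CP190 differences under these rules was largely fixed in advance. With the top 50% of each list, the Su(Hw) shares were 10.4%, 11.6% and 9.58% at 0, 3 and 48 h (uniform placement 2.73%, 2.81% and 2.54%) and the dCTCF shares 20.4%, 24.0% and 23.8%. Shared minus Su(Hw)-only CP190 was then 65.6, 60.8 and 62.5 points, and shared minus dCTCF-only 36.4 at 3 h. With 3333 peaks per list, the Su(Hw) shares were 13.1%, 12.7% and 12.2% (uniform placement 4.33%, 4.43% and 4.82%), the dCTCF shares 13.4%, 13.0% and 12.5%, the differences from Su(Hw)-only sites 61.1, 57.7 and 56.2 points, those from dCTCF-only sites 34.0 at 0 h and 38.1 at 48 h, and the share of regions shared at all times 57.7%. With centres within 250 bp, the Su(Hw) shares were 26.9%, 26.7% and 21.6%, the dCTCF shares 53.5%, 55.5% and 53.9%, and regions shared at all times 45.9%. With peaks of 400 bp, Su(Hw) had 28.1% at 3 h and 23.4% at 48 h (uniform placement 2.73% and 2.23%). The dCTCF shares were then 56.4%, 58.4% and 58.1%, and regions shared at all times 49.2%. With all sequences, dCTCF had 42.0%, 46.5% and 40.5%. No paired analysis was possible because each group has 1 library. Read depth is unknown, so weak peaks missing from a list cannot be told apart from sites not bound.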
